A study of Mus musculus with 16 samples.

Results

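Alternative activation is the state that macrophages take on when the cytokines interleukin-4 and interleukin-13 act on them, and 8 mouse genes that are commonly used to mark it were followed: Arg1, Mrc1, Chil3, Retnla, Clec10a, Mgl2, Irf4 and Pdcd1lg2. They were taken by name from the deposited table, in which each had 1 row among 46320 genes, and their values were compared across all 4 treatments. The cells were bone marrow-derived macrophages (BMDMs) of C57BL6/J mice, grown for 7 days with 15% medium from L929 cells, which supplies the growth factor M-CSF, and then starved for 4 hours in 0.5% serum. Every culture of 400000 macrophages was then treated for 4 hours, and bulk poly(A) RNA was sequenced from 4 libraries per treatment. The 4 treatments were platelets activated by thrombin, resting platelets, thrombin without platelets, and PBS as the vehicle, and the platelets came from blood of mice of the same strain. The protocol puts thrombin at 0.01 U/mL for the thrombin and the activated platelet treatment, but the labels of the thrombin samples read 0.1 U/mL, so any comparison of those groups rests on a dose that the labels do not settle. The labels give no interleukin-4 or interleukin-13 treatment for any group.

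Interleukin-4 and interleukin-13 bind receptors that contain the Il4ra chain, and the Janus kinases on them activate STAT6, a transcription factor that binds the promoters and enhancers of many of these genes. Irf4 is a transcription factor of this programme. Arg1 encodes arginase 1, which splits arginine into ornithine and urea. Mrc1 (the mannose receptor CD206), Clec10a and its neighbour Mgl2 encode C-type lectins that bind sugars on glycoproteins, and Chil3 (Ym1) and Retnla (RELM alpha) encode secreted proteins. Pdcd1lg2 encodes PD-L2, a ligand of the T cell receptor PD-1. Some of them are also used by other cells, such as Chil3 in neutrophils and their precursors, and Clec10a, Mgl2, Irf4 and Pdcd1lg2 in dendritic cells.

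The promoters of 4 markers are shown because they include the marker with the highest level (Mrc1), the factor that was lower with activated platelets (Irf4), and 2 markers that were nearly silent but hold a STAT6 motif (Retnla and Pdcd1lg2). Each is 300 bases from 250 before to 50 after the start site, read 5′ to 3′ on the gene's strand from RefSeq on GRCm38.p6, at chr2:14229164-14229463 (plus strand), chr13:30748983-30749282 (plus), chr16:48842359-48842658 (plus) and chr19:29410669-29410968 (plus). Capitals mark matches to the motifs searched.
Mrc1: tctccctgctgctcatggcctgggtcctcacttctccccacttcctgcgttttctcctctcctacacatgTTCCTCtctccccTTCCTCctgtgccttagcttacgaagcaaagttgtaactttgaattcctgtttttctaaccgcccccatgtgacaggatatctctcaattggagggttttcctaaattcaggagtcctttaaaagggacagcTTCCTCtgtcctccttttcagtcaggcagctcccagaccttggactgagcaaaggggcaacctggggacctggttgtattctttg
Irf4: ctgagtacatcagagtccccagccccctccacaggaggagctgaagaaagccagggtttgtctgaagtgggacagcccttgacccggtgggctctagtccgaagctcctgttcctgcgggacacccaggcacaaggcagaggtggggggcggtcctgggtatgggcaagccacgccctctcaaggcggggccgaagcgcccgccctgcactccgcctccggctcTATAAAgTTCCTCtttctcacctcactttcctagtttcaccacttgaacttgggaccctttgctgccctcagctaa
Retnla: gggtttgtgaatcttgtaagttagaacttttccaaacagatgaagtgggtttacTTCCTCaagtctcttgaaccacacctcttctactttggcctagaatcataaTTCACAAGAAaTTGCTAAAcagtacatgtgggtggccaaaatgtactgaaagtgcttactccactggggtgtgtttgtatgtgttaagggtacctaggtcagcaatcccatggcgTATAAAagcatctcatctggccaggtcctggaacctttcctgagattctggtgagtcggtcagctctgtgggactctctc
Pdcd1lg2: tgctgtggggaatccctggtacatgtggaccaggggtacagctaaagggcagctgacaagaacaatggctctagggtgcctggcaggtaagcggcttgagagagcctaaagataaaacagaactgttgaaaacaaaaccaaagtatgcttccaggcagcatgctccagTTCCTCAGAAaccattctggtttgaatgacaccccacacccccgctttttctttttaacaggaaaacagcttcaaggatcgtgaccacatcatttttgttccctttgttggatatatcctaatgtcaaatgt
The motifs, searched on both strands, were TTC and GAA with any 4 bases between them for STAT6, TTGCNNAA for C/EBP factors, GAGGAA for the core of PU.1, the factor that drives macrophage development, TGANTCA for AP-1 and TATAAA for the TATA box. Of 32851 mouse promoters of the same length, 6.95% hold the STAT6 motif, 10.8% the C/EBP motif, 28.3% the PU.1 core, 7.81% the AP-1 motif and 13.6% the TATA box. Retnla has the STAT6 motif as TTCACAAGAA 145 bases before its start, next to TTGCTAAA at 134 bases, and a TATA box at 30 bases. Pdcd1lg2 has the STAT6 motif as TTCCTCAGAA at 82 bases, and the PU.1 core on the other strand overlaps it. Mrc1 has the PU.1 core 3 times, at 180, 167 and 35 bases, and Irf4 has it once, at 19 bases, beside a TATA box at 26. Of the markers not printed, Chil3 has only a TATAAA match, 3 bases before its start and so closer to it than those of Retnla and Irf4. Mgl2 has only the PU.1 core, at 225 bases, and the promoters of Arg1 and Clec10a were not used here. A match is a string of letters and does not show binding.

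The libraries held 28.0 to 30.6 M (mega) counts with activated platelets, 24.9 to 26.4 M with resting platelets, 23.1 to 26.7 M with thrombin and 22.6 to 27.7 M with vehicle. The 8 macrophage markers were all present and summed to 16610 to 21550 CPM (counts per mega counts of the library, scaled by TMM) with activated platelets and 17050 to 21400 CPM with vehicle. Transcripts of stromal cells were present too: 5 markers, mostly the collagen genes Col1a1 and Col1a2, summed to 1971 to 4245 CPM with activated platelets, 2407 to 4781 CPM with resting platelets, 2341 to 4559 CPM with thrombin and 2498 to 4980 CPM with vehicle. Of those 5, edgeR called 0 for activated platelets against vehicle, and 3 lower with replicate number as a block, and their part in the marker values was not tested. The replicate 1 libraries of every group carried transcripts of male cells and the others those of female cells, with the Y-linked gene Ddx3y at 85.1 to 93.2 CPM in replicate 1 and at most 0.27 CPM in the others. Platelet RNA was present where platelets had been added. The sum of 15 platelet and megakaryocyte markers was 457.9 to 528.9 CPM with activated platelets, 267.3 to 309.2 CPM with resting platelets, 233.0 to 255.0 CPM with thrombin and 227.3 to 276.2 CPM with vehicle. The resting platelet and vehicle ranges overlapped, and much of the sum was Pf4, with means of 207.2 and 198.7 CPM in these groups. Against vehicle 14 of the 15 were called higher with activated platelets and 9 with resting platelets (edgeR). Of all genes 25.8% and 3.39% were called there in either direction. All 15 had counts in both platelet groups and 13 in the thrombin and vehicle groups. In these bulk samples, fewer cells of a type and less RNA per cell cannot be told apart.

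Activated platelets went with more Arg1 transcript and with less Clec10a, Irf4 and Mrc1, while Chil3 did not pass the test. Against vehicle, Arg1 was 6.44-fold higher, Clec10a 2.85-fold lower, Irf4 2.17-fold lower and Mrc1 1.48-fold lower. The other markers, Mgl2, Pdcd1lg2 and Retnla, were too low to test. Rose, fell and changed are used of genes for which edgeR's quasi-likelihood test over all 15610 genes that passed a filter on low counts gave a Benjamini-Hochberg adjusted p under 0.05, and 5 of the 8 markers passed that filter. The markers' 1 rise and 3 falls stand against a background of 12.2% of all tested genes higher and 13.6% lower in this comparison (25.8% in either direction). Arg1 reached the filter's cutoff of 0.377 CPM in 4 libraries with activated platelets, 1 with resting platelets, 0 with thrombin and 0 with vehicle, so it entered the test through the group where it is high, and its presence among the tested genes says nothing about the markers as a set. Mrc1, Chil3, Clec10a and Irf4 were over the cutoff in all 16 libraries.

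**Figure D1:**
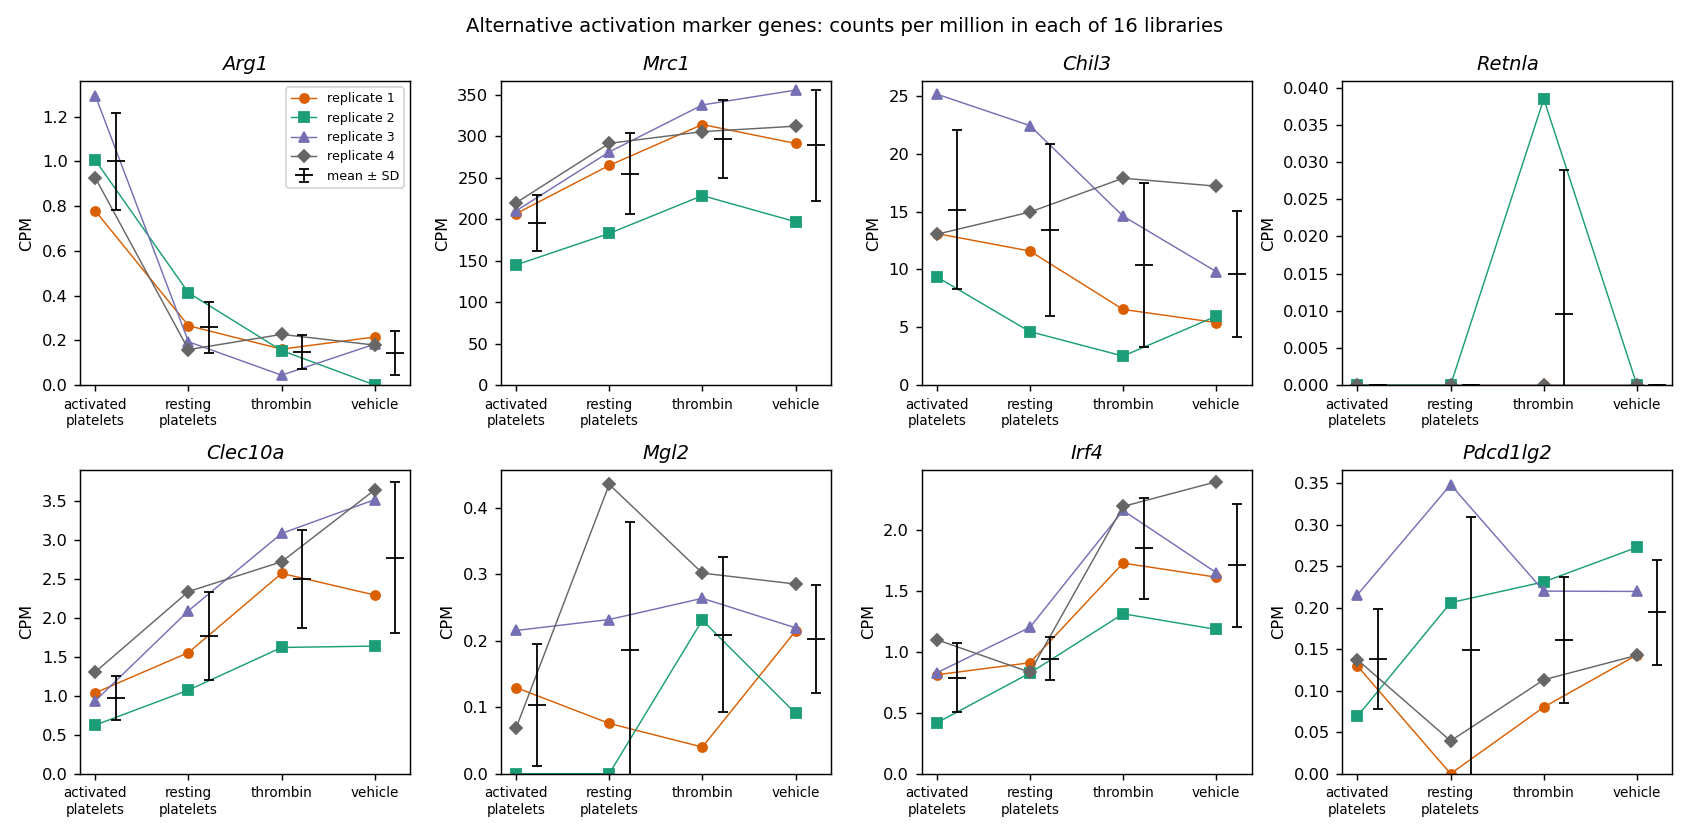
CPM of the 8 markers (one panel each, vertical axes from 0) in each library, with activated platelets, resting platelets, thrombin and vehicle from left to right. Points are libraries, thin lines join libraries of the same replicate number, and black bars are the mean ± SD of 4 libraries. Arg1 lies at 0.778 to 1.29 CPM with activated platelets, above all other libraries. With activated platelets Clec10a and Irf4 lie below all thrombin and vehicle libraries, as do 13.5% of all genes in each of these comparisons.

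Arg1 (chromosome 10, 24791105 to 24803368, minus strand, GRCm39) stood at 0.778, 1.005, 1.29 and 0.926 CPM with activated platelets (replicates 1 to 4), at 0.265, 0.412, 0.193 and 0.158 CPM with resting platelets, at 0.1605, 0.154, 0.044 and 0.226 CPM with thrombin, and at 0.215, 0, 0.183 and 0.178 CPM with vehicle. All 4 activated platelet libraries lay above each of the other 12, as did 12.6% of all genes against vehicle, 11.9% against thrombin and 9.7% against resting platelets. The level stayed low even so: the deposited counts over the 4 libraries of a group came to 116 with activated platelets, 26 with resting platelets, 15 with thrombin and 16 with vehicle. In log2, Arg1 rose by 2.69 ± 0.41 (SE) against vehicle (adjusted p = 0.000143, edgeR), by 2.702 ± 0.41 against thrombin (adjusted p = 0.000154) and by 1.94 ± 0.37 against resting platelets (adjusted p = 0.00219). The rise against vehicle kept its call with any 1 of the 8 libraries or any 1 of the 4 replicate numbers left out. With resting platelets it stood at 0.257 ± 0.113 CPM against 0.144 ± 0.0974 CPM with vehicle (SD, n = 4 each) and was not called (log2 fold change 0.74 ± 0.52, adjusted p = 0.477, edgeR).

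Mrc1 (chromosome 2, 14234225 to 14336834, plus strand) fell modestly with activated platelets. It stood at 206.6, 144.8, 210.0 and 219.7 CPM with activated platelets, at 264.8, 182.8, 281.0 and 291.4 CPM with resting platelets, at 314.1, 228.4, 337.7 and 305.5 CPM with thrombin, and at 291.3, 196.9, 355.6 and 312.1 CPM with vehicle. Replicate 2 was the lowest library of every group, and vehicle replicate 2 lay within the range of the activated platelet libraries, so those groups overlap. The thrombin libraries all lay above the activated platelet ones, as for 13.5% of all genes. Mrc1 fell by 0.57 ± 0.18 in log2 against vehicle (adjusted p = 0.0334, edgeR) and by 0.60 ± 0.18 against thrombin (adjusted p = 0.0252). Within replicate numbers the ratio of activated platelets to vehicle was 0.709, 0.735, 0.591 and 0.704, lower in 4 of 4. The share of all genes with such agreement was not counted. The call against vehicle was close to the threshold: it ended with no filter on low counts (adjusted p = 0.108), without activated platelets 1 (0.0553) or 2 (0.0958) and without vehicle 1 (0.0608), 3 (0.11) or 4 (0.0736), whereas with the replicate number as a block it had adjusted p = 1.03e-09 (42.5% of all genes were called with the block). Against thrombin the call ended with no filter (adjusted p = 0.09), without activated platelets 2 (0.0735) and without thrombin 1 (0.0588) or 3 (0.0725).

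Clec10a, which encodes a lectin for galactose and N-acetylgalactosamine (chromosome 11, 70057449 to 70061662, plus strand), had its lowest group mean with activated platelets and its highest with vehicle. It stood at 1.04, 0.624, 0.934 and 1.30 CPM with activated platelets, at 1.55, 1.07, 2.09 and 2.34 CPM with resting platelets, at 2.57, 1.62, 3.08 and 2.72 CPM with thrombin, and at 2.29, 1.64, 3.51 and 3.64 CPM with vehicle. Every activated platelet library lay below every thrombin and vehicle library, as for 13.5% of all genes in each of these comparisons, and the resting platelet libraries overlapped both sides. Clec10a fell by 1.51 ± 0.30 in log2 against vehicle (adjusted p = 0.00159, edgeR) and by 1.35 ± 0.31 against thrombin (adjusted p = 0.00405). Against resting platelets it was not called (log2 fold change -0.85 ± 0.32, adjusted p = 0.0819, edgeR), but it was without resting platelets 2 (adjusted p = 0.0431). Clec10a and Mgl2 share sequence: 9.02% of the 50-base strings of Clec10a transcripts and 13.1% of those of Mgl2 also occur in other genes, and counts that were not whole were found in 12 of 16 libraries for each. The fractional part was 0.714% of the Clec10a counts and 8.22% of the Mgl2 counts.

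Irf4 (chromosome 13, 30933191 to 30950965, plus strand) had lower means in both platelet groups than in the groups without platelets. It stood at 0.811, 0.416, 0.827 and 1.10 CPM with activated platelets, at 0.909, 0.825, 1.199 and 0.831 CPM with resting platelets, at 1.73, 1.31, 2.16 and 2.19 CPM with thrombin, and at 1.61, 1.18, 1.65 and 2.39 CPM with vehicle. No activated platelet library reached a thrombin or vehicle library, as for 13.5% of all genes in each of these comparisons. Of the resting platelet libraries 1, at 1.199 CPM, was above the lowest vehicle library, at 1.18 CPM. Irf4 fell by 1.12 ± 0.27 in log2 against vehicle (adjusted p = 0.00565, edgeR) and by 1.22 ± 0.27 against thrombin (adjusted p = 0.0031). Activated against resting platelets gave a log2 fold change of -0.26 ± 0.29 (adjusted p = 0.616, edgeR).

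Chil3 (chromosome 3, 106054870 to 106074880, minus strand) varied widely among libraries of the same group. It stood at 13.1, 9.36, 25.2 and 13.04 CPM with activated platelets, at 11.6, 4.62, 22.4 and 15.0 CPM with resting platelets, at 6.54, 2.504, 14.6 and 17.9 CPM with thrombin, and at 5.40, 5.95, 9.81 and 17.2 CPM with vehicle. The groups overlapped, and none of the 5 comparisons between groups gave a call (activated platelets against vehicle, log2 fold change 0.65 ± 0.54, adjusted p = 0.421 with edgeR and 0.14 with the replicate block). Of the 50-base strings of its transcripts, 26.9% also occur in Chil4 or the predicted gene Gm6522. Its counts were not whole in 8 of 16 libraries, and the fractional part was 0.083% of them. A division of its reads between copies was not tested.

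Chil3 followed the transcripts of neutrophils from library to library. The 10 neutrophil markers, among them S100a8 and S100a9 (calprotectin), Ltf (lactoferrin), Ngp and Camp, summed to 50.2 to 123.6 CPM with activated platelets, 18.8 to 95.2 CPM with resting platelets, 12.5 to 74.2 CPM with thrombin and 20 to 64.9 CPM with vehicle. After group means were removed, log2 Chil3 and the log2 sum of the markers had a Pearson r of 0.977 over the 16 libraries, which share replicate numbers across groups. The ratio of Chil3 to that sum had medians of 0.207 with activated platelets, 0.248 with resting platelets, 0.249 with thrombin and 0.246 with vehicle, and the ranges of all 4 overlapped. All 10 markers had counts in each group, with Ly6g, the surface marker of mature neutrophils, at most at 0.151 CPM in a library. Of the 7 neutrophil markers tested, 0 changed with activated platelets against vehicle in edgeR and 2 were higher with the replicate block. The part of other cells in the Chil3 values was not tested.

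**Figure D2:**
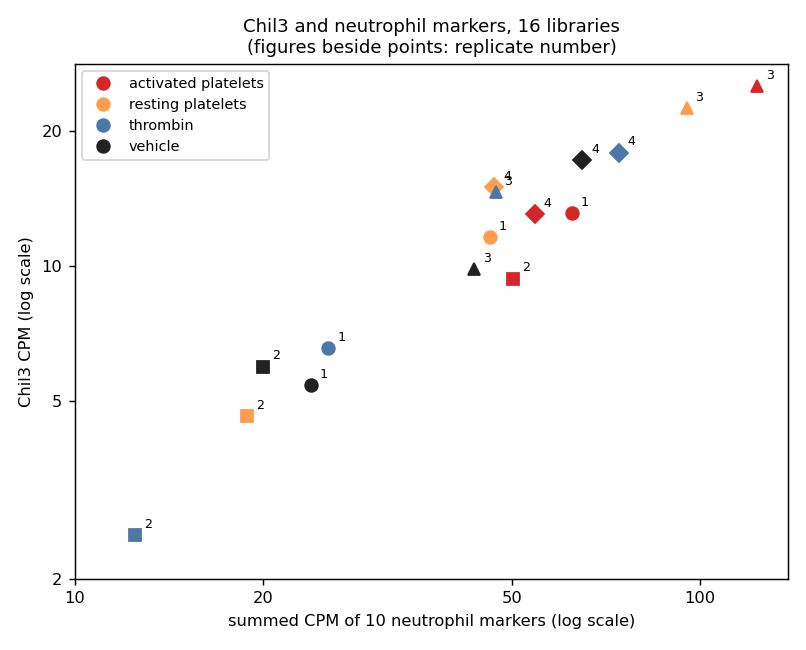
CPM of Chil3 (vertical) against the summed CPM of 10 neutrophil markers (horizontal), both on log axes, with 1 point per library coloured by treatment. The libraries lie along 1 line across all 4 treatments, with a Pearson r of 0.977 after group means were removed.

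Mgl2, Pdcd1lg2 and Retnla were near the limit of the data. Mgl2 (chromosome 11, 70020953 to 70028368), the lectin gene next to Clec10a, had at most 0.435 CPM in any library, and its deposited counts summed to 11 with activated platelets, 19 with resting platelets, 22 with thrombin and 21 with vehicle. Pdcd1lg2 (chromosome 19, 29388319 to 29450327) had at most 0.348 CPM and sums of 16, 15, 16 and 20 counts in the same order of treatments. Retnla (chromosome 16, 48662972 to 48664824) had 1 count in the 16 libraries, in thrombin replicate 2, and for groups with no count a floor of 3 counts allows up to 0.0257 CPM with activated platelets, 0.0295 CPM with resting platelets and 0.0285 CPM with vehicle. With no filter on low counts, edgeR gave log2 fold changes of -0.98 for Mgl2 (adjusted p = 0.52) and -0.46 for Pdcd1lg2 (adjusted p = 0.72) with activated platelets against vehicle. Differences in these 3 genes were not detectable at this depth.

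**Figure D3:**
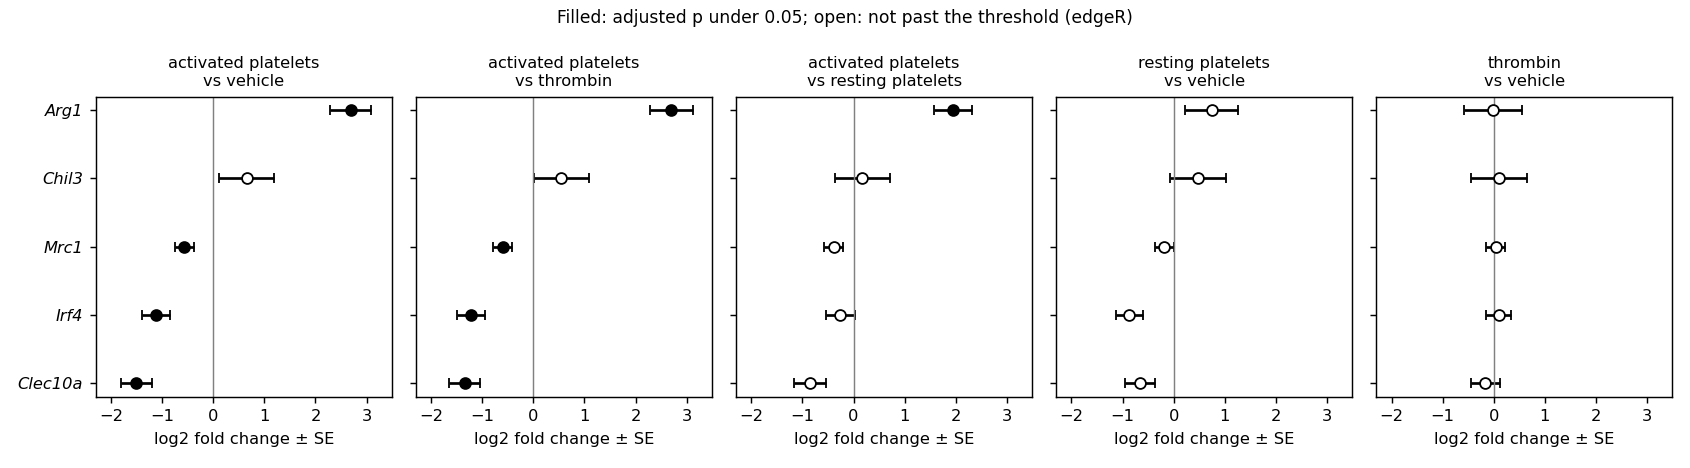
Log2 fold changes with their standard errors for the 5 markers that could be tested, in the 5 comparisons between treatments (edgeR, 16 libraries), with filled points past the threshold. Arg1 is at 2.69 and Clec10a at -1.51 for activated platelets against vehicle, and every marker lies near 0 for thrombin against vehicle.

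Resting platelets against vehicle gave 0 calls among the 5 tested markers, against a background of 3.39% of all genes. At an unadjusted p under 0.05 Irf4 and Clec10a were lower. Backgrounds are given for adjusted p only, and the share of all genes at the unadjusted threshold was not counted in any comparison. The log2 fold changes were -0.86 ± 0.27 for Irf4 (adjusted p = 0.0852, edgeR), -0.66 ± 0.29 for Clec10a (adjusted p = 0.226) and -0.18 ± 0.18 for Mrc1 (adjusted p = 0.663). Mrc1, Clec10a and Irf4 were each lower with resting platelets in 4 of 4 replicate numbers. How many of all genes agree in this way was not counted. With the replicate number as a block, which compares libraries within a number, Clec10a (adjusted p = 0.00143), Irf4 (0.0018) and Mrc1 (0.00681) were called lower, where 21.5% of all genes were called in that fit. For activated against resting platelets the block called 3 markers, where 34.5% of all genes were called. Arg1 was higher (adjusted p = 0.00011, edgeR), and Clec10a (adjusted p = 0.000284) and Mrc1 (6.55e-07) were lower. The fit without the block called Arg1 alone, against a background of 15.8% of genes in either direction and 7.34% higher.

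Thrombin against vehicle gave 0 calls among the 5 markers in edgeR, with 0 at an unadjusted p under 0.05, 0 with the replicate block, and a background of 0.288% without and 8.23% with the block. The log2 fold changes lay between -0.16 ± 0.28 for Clec10a and 0.11 ± 0.55 for Chil3. For activated platelets against thrombin, which shares its activated platelet libraries with the comparison against vehicle, 1 marker was called higher and 3 lower, as given above, where 11.9% of all genes were called higher and 13.5% lower (25.4% in all). The interaction is the change with thrombin in the presence of platelets minus the change with thrombin in their absence. It had 0 marker calls in edgeR without the block (background 9.93%). Of the markers 1, Arg1, had an unadjusted p under 0.05, a threshold without a counted background. The interaction was 1.958 ± 0.71 in log2 for Arg1 (adjusted p = 0.0921), -0.69 ± 0.42 for Clec10a (0.341) and -0.42 ± 0.26 for Mrc1 (0.347). With the block these 3 were called (adjusted p = 0.045, 0.0137 and 1.9e-05), where 29.1% of all genes were. For Irf4 the interaction was -0.36 ± 0.38 (adjusted p = 0.621, and 0.316 with the block).

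Per kilobase of merged exon sequence, which allows levels of different genes to be set side by side, Mrc1 came first in every group, at 36.7 CPM per kilobase with activated platelets and 54.3 with vehicle, and Chil3 second, at 9.85 with activated platelets and 6.23 with vehicle. With activated platelets Arg1, at 0.678 CPM per kilobase, and Clec10a, at 0.649, came next and their libraries overlapped. With vehicle Clec10a ranked 3, at 1.85 CPM per kilobase, then Irf4 at 0.357, then Mgl2 at 0.102, Arg1 at 0.0975 and Pdcd1lg2 at 0.057, of which the last 3 overlapped. Arg1 thus ranked 3 of 8 with activated platelets and 6 of 8 with vehicle.

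Mrc1, Clec10a, Irf4 and Chil3 moved together among libraries of the same treatment. After group means were removed, Pearson's r over the 16 libraries was 0.939 for Mrc1 and Clec10a, 0.792 for Clec10a and Irf4, 0.743 for Mrc1 and Irf4. For Chil3 it was 0.762 with Clec10a, 0.708 with Mrc1 and 0.689 with Irf4, and for Arg1 and Clec10a it was 0.0373. Replicate 2 lay below the group mean in 4 of 4 groups for Mrc1, Chil3, Clec10a and Irf4, by 0.44, 1.02, 0.60 and 0.45 on average in log2, where the replicate number is shared across treatments. Arg1 had no such pattern, with replicate 2 below its group mean in 1 of 4 groups. Among 10372 genes with a mean of at least 5 CPM, the pattern over the 16 libraries most like that of Mrc1 was that of Rhobtb1 (r = 0.946), Clcn5 (0.946) and Kctd12 (0.932). For Clec10a it was Kctd12 (r = 0.962), Herpud1 (0.956) and Nfxl1 (0.953), for Irf4 Sars (0.917), Lrp4 (0.901) and Trim16 (0.899), and for Arg1 Slc25a33 (0.954), Gramd1b (0.947) and Ppp1r3b (0.926). For Chil3 the 3 genes were Ltf (r = 0.975), S100a9 (0.969) and Ngp (0.969), all on the neutrophil list.

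Several of the markers are also made by dendritic cells and lymphocytes, whose markers were followed beside them. The 12 dendritic cell markers summed to 115.7 to 164.0 CPM with activated platelets and 141.9 to 223.7 CPM with vehicle, and 1 of the 6 tested fell, Ciita, the transactivator of MHC class II genes (log2 fold change -1.33, adjusted p = 0.00443, edgeR; 3 lower with the replicate block). Most of that sum was Itgax, with means of 106.5 CPM with activated platelets and 131.1 CPM with vehicle. Flt3, Xcr1, Cd209a, Ccr7 and Siglech were near 0 in all groups, at most at 0.348 CPM in a library. Other markers of dendritic cell types were not, with group means of 1.57 to 1.84 CPM for Zbtb46 and 0.373 to 0.47 CPM for Clec9a. The 7 lymphocyte markers summed to 8.91 to 17.4 CPM with activated platelets and 19.0 to 37.5 CPM with vehicle, and 1 of the 2 tested fell, Ighm, the heavy chain of immunoglobulin M (log2 fold change -2.07, adjusted p = 0.000111, edgeR). The part of these cells in the lower Clec10a and Irf4 values was not tested. Among 11 mast cell, basophil and eosinophil markers, the sum was 7.17 to 9.22 CPM with activated platelets and 8.34 to 12.9 CPM with vehicle, and 0 of the 4 tested changed in edgeR (1 lower with the block). Of the cytokines of the pathway, Il13 had 0 counts in all 16 libraries, and Il4 had 2 counts with activated platelets, 1 with resting platelets, 0 with thrombin and 0 with vehicle. The 6 markers of red blood cells summed to 7.61 to 14.2 CPM with activated platelets, 0.752 to 2.98 CPM with resting platelets and at most 0.0714 CPM with vehicle, and the part of RNA carried over from blood in the marker values was not tested.

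The genes around the markers moved in both directions with activated platelets against vehicle. So did the tested genes at large, of which 12.2% were called higher and 13.6% lower, and no list was tested against these shares. Among 11 tested genes of interleukin-4 and interleukin-13 receptor signalling 3 rose and 2 fell, with a median log2 fold change of -0.06 against 0.00 over all genes. Il4ra, the shared receptor chain, rose 1.38-fold to 173.4 ± 11.5 CPM with activated platelets, against 125.3 ± 12.0 CPM with vehicle (SD, n = 4; adjusted p = 0.000165, edgeR), and Irs2, an adaptor of the receptor, rose 1.23-fold (adjusted p = 0.00932). Ptpn6, the phosphatase SHP-1, fell to 181.2 ± 5.77 CPM against 289.0 ± 7.02 CPM (adjusted p = 3.18e-08), and the kinase gene Tyk2 fell by 0.22 in log2 (adjusted p = 0.0175, but 0.0564 without vehicle 2 and 0.0627 without activated platelets 4). Stat6 itself, chosen after its values were seen, was not called (log2 fold change 0.08, adjusted p = 0.168, edgeR).

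Among 13 transcription factors linked to alternative activation 4 rose and 5 fell (median -0.09). Pparg, a nuclear receptor that supports the programme, fell 3.4-fold, to 13.6 ± 1.35 CPM with activated platelets against 46.2 ± 5.78 CPM with vehicle (adjusted p = 4.77e-09, edgeR). Batf3, a factor best known from dendritic cells, fell 4.89-fold, to 0.518 ± 0.156 CPM against 2.55 ± 0.293 CPM (adjusted p = 3.22e-06). Both were also lower with resting platelets, at 36.1 ± 2.9 CPM for Pparg (adjusted p = 0.049) and 1.45 ± 0.342 CPM for Batf3 (adjusted p = 0.0477). They were the 2 calls of 13 there, where 3.39% of all genes were called. Those resting platelet calls were near the threshold and ended with no filter (0.0622 for Pparg, 0.0579 for Batf3), and omitting 1 library gave adjusted p up to 0.144 for Pparg and 0.146 for Batf3. Of the rises, Cebpb, which binds an Arg1 enhancer and is also a factor of inflammatory genes, was 2.37-fold higher (adjusted p = 2.23e-06) and Hif1a, the hypoxia factor, 2.08-fold higher (adjusted p = 6.05e-09).

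Among 24 tested other targets of alternative activation, of 31 listed, 4 rose and 4 fell (median -0.06). Tgm2, a transglutaminase, rose 10.1-fold (adjusted p = 1.33e-08, edgeR) and Il1rn, the interleukin-1 receptor antagonist, 2.39-fold (adjusted p = 6.98e-09), while the kinase gene Matk fell 1.64-fold (adjusted p = 0.00137) and Il10, an anti-inflammatory cytokine, fell 3.2-fold to 0.151 ± 0.105 CPM against 0.503 ± 0.0736 CPM (adjusted p = 0.00279). Tgm2 and Il1rn were also the 2 rises with resting platelets, and Il1rn was the 1 rise with thrombin (adjusted p = 0.0422, and 0.0724 to 0.145 without any 1 library except thrombin 3). Over all genes 3.39% were called for resting platelets and 0.288% for thrombin, each against vehicle. With the replicate block 4 of this list were higher and 9 lower for activated platelets against vehicle, where 42.5% of all genes were called.

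In the arginine and polyamine genes, the pathway of arginase, 4 of 15 tested rose and 2 fell (median 0.04). Arg2, the mitochondrial arginase, stood at 11.2 ± 2.51 CPM with activated platelets against 2.95 ± 1.08 CPM with vehicle, 3.78-fold higher (adjusted p = 4.48e-05, edgeR), so both arginase genes rose. Smox, spermine oxidase, was 2.05-fold higher (adjusted p = 6.42e-08), and spermine synthase (Sms, log2 fold change -0.27, adjusted p = 0.000557) and Sat1, which acetylates polyamines (-0.46, adjusted p = 0.00922), fell. With resting platelets 0 of the 15 changed in edgeR without the block, and 6 were higher and 2 lower with it. Over all genes 3.39% were called there without the block and 21.5% with it.

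Of the 16 tested markers of classical activation, the state set by interferon gamma and bacterial products, 6 rose and 2 fell (median 0.02). Ptgs2, the inducible cyclooxygenase, rose 9.42-fold (adjusted p = 5.13e-08, edgeR) and Il1b, interleukin-1 beta, 7.27-fold (adjusted p = 1.65e-06), while the factors Irf5 (log2 fold change -0.34, adjusted p = 0.00164) and Irf1 (-0.35, adjusted p = 0.006) fell. Ptgs2 was the 1 call of the list with resting platelets (adjusted p = 0.000868), where 3.39% of all genes were called. Both the alternative and the classical markers thus held genes that rose and genes that fell in the same libraries, as did the tested genes at large.

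**Figure D4:**
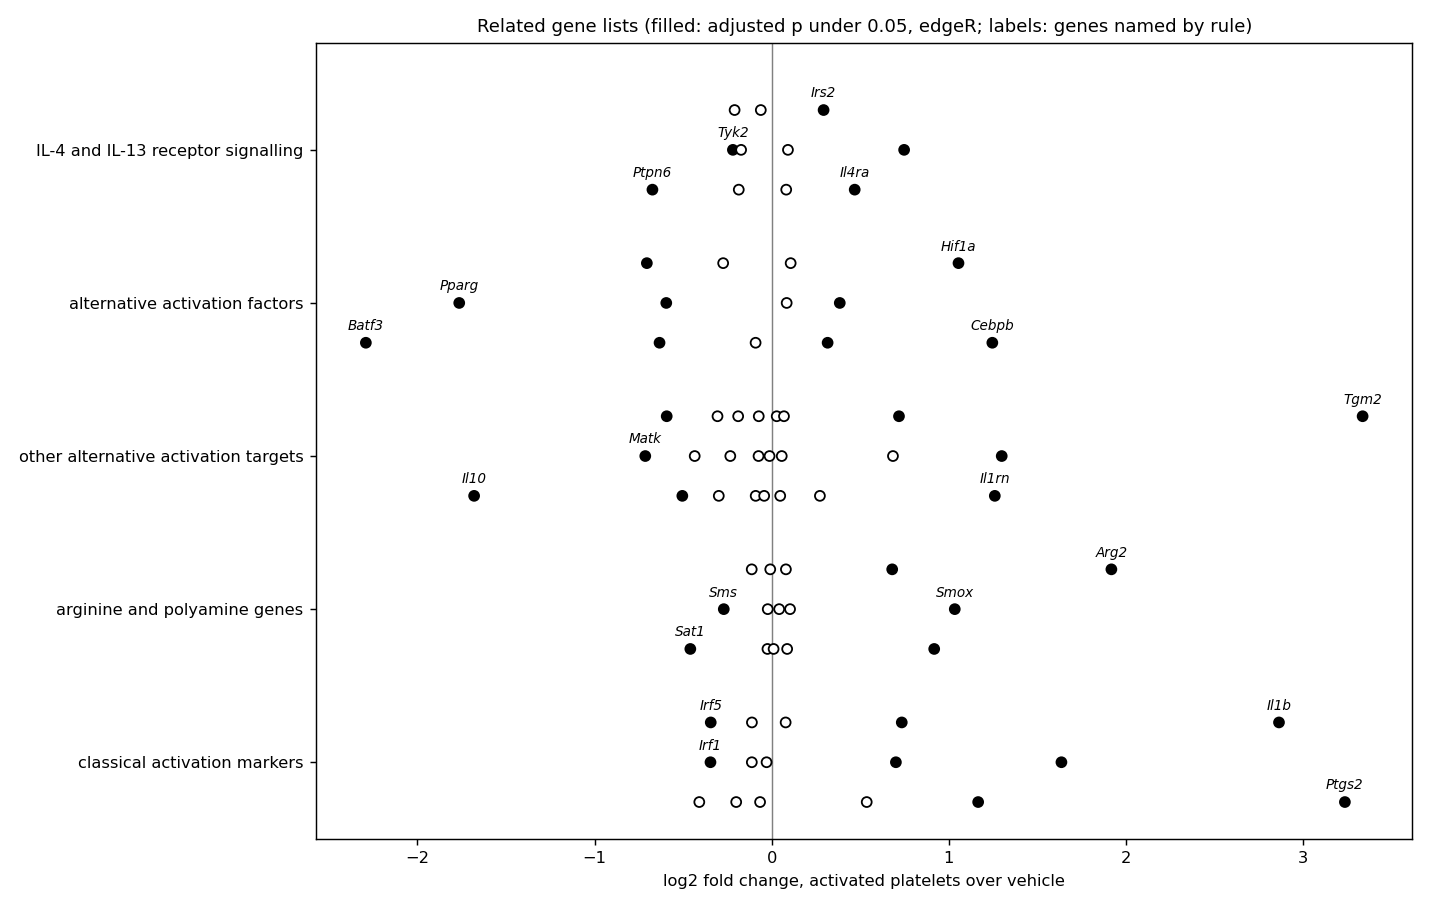
Log2 fold change of activated platelets over vehicle for every tested gene of the 5 related lists, 1 list per row. Filled points passed the edgeR test, and the genes named by rule are labelled. Every list holds filled points on both sides of 0, from Batf3 at -2.29 to Tgm2 at 3.33. Of all tested genes, 25.8% passed in this comparison.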

How the data were processed

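The authors deposited 1 table of estimated counts per gene for 16 libraries, with gene symbols and GRCm39 coordinates. The submitters' processing notes name cutadapt 2.5, STAR 2.7.2b, featureCounts 1.6.4 and Subread, and the builds GRCm39 and mm10. Strand setting and the handling of reads that match several genes: not given in the sources used here. Of the deposited count values above 0, 25.5% were fractional. They were rounded, which changed 0.000694% of the total, although the tests had been set for whole counts.

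The main test was edgeR 4.0.16 (R 4.3.3; robust quasi-likelihood) after filterByExpr by group and TMM scaling, with all 16 libraries as 4 groups. P-values are two-sided and Benjamini-Hochberg adjusted over 15610 genes at 0.05, for 6 comparisons including the interaction. CPM use TMM-scaled library sizes, and floors of 3 counts cover counting error only. Correlations were taken on log2 CPM (prior count 2). Alternatives were DESeq2 1.42.0 and its size factors, limma-voom 3.58.1, no filter, the 2 compared groups alone, a replicate block and each library or replicate number left out.

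With group means removed, libraries of the same number had correlations of 0.29 to 0.617 and other pairs -0.436 to 0.253, and each of the 16 was closest to one of its own number. The replicate numbers therefore appear to pair the libraries, on the evidence of the data alone, because no label explains them. The main test did not use this pairing, and among the fits only the one with the replicate block did. Replicate 1 carried transcripts of the other sex than replicates 2 to 4, so more than 1 animal was used. No label says whether replicates 2 to 4 came from separate animals or cultures, so the p-values reflect the spread among these samples, part of which may be technical. All 8 markers were named whatever their values. Also named were up to 2 rises and 2 falls with the smallest p per related list, in activated platelets, resting platelets and thrombin against vehicle, and the 3 genes most correlated with each tested marker. The markers and lists were chosen with earlier results of these data known. Promoters came from RefSeq (6 of 8 markers matched), and shared 50-base strings from the GENCODE transcripts of GRCm38.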

Additional observations from a re-analysis of the deposited data

Results flagged for a closer look

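For Arg1, vehicle replicate 2 had 0 CPM and stood apart from the other 3 vehicle libraries, which lay at 0.178 to 0.215 CPM. Its gap to the nearest library exceeded the 95% critical value of Dixon's test for 4 samples. Of 20 marker groups checked this was the 1 that did so, and chance sets apart about 1 in 20. The 0 rests on no counts where the other 3 libraries had 5 or 6.

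The change with thrombin differed between macrophages with and without platelets when the replicate number was a block. This interaction was 1.958 in log2 for Arg1 (adjusted p = 0.045, edgeR), -0.43 for Mrc1 (adjusted p = 1.9e-05) and -0.70 for Clec10a (adjusted p = 0.0137). Over all genes, 29.1% were called for the interaction with the block and 9.93% without it. Without the block 0 of these 3 passed. The thrombin dose of the thrombin group is not settled by the labels, and the part of a dose difference cannot be told apart from that of platelets.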

How the results depend on the processing

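Of 9600 log2 fold changes recomputed for single genes, 9153 kept their side of the threshold, 261 lost a call and 186 gained one. In 482 the sign differed, none of them called under either setting, such as Arg1 for thrombin against vehicle (-0.01, with 0.26 by limma-voom and the other sign in 7 settings). Of 75 correlations between a marker and another gene, recomputed under alternatives chosen after seeing the data, 1 moved beyond its interval (Mrc1 and Kctd12, 0.978 without replicate number 2). With the replicate block the markers called numbered 3 for resting platelets against vehicle (0 without it), 3 for activated against resting platelets (1 without) and 3 for the interaction (0 without). In the 5 related lists the calls with the block were 15 for thrombin against vehicle (1 without), 32 for resting platelets against vehicle (6 without), 47 for activated against resting platelets (26 without) and 45 for the interaction (17 without). The block changed no other marker call.

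With single libraries or replicate numbers left out, the markers called ranged from 3 to 4 for activated platelets against vehicle, from 2 to 4 against thrombin (2 without replicate number 3), from 1 to 3 against resting platelets (2 without resting platelets 2, 3 without number 2) and from 0 to 2 for the interaction (1 without vehicle 2, 2 without number 2). They stayed at 0 for resting platelets and for thrombin against vehicle. Without replicate number 1, 3 or 4, Mrc1 lost its call against vehicle (adjusted p = 0.159, 0.16 and 0.115), and without number 2 it had adjusted p = 5.57e-05. Clec10a lost its call against thrombin without number 3 (0.05005). Of the related genes, Irs2 (0.0569) and Sat1 (0.05008) lost their calls against vehicle without number 4. Irf1 did so without number 1 (0.0803) or 4 (0.0534), and Tyk2 without number 1 (0.0889), 2 (0.0595) or 4 (0.0638). With resting platelets Tgm2 lost its call without number 1 (0.141) or 2 (0.096), Il1rn without number 2 (0.0598) and Ptpn6 without number 1 (0.178), 2 (0.0728) or 4 (0.08). Calls that ended without any 1 number were Pparg (0.116 to 0.208) and Batf3 (0.074 to 0.235) with resting platelets and Il1rn (0.108 to 0.357) with thrombin. The last also ended by limma-voom (0.0502) and with the 2 groups alone (0.1995).

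Over all genes, changes of tool, filter or design moved counts by more than 1.5 times to 1285 (block), 160 (DESeq2) and 11 (2 groups alone) against 45 for thrombin, and 3360, 953 and 188, with 335 under no filter, against 529 for resting platelets, each against vehicle. The block gave 6635 against 4031 for activated platelets against vehicle, 6499 against 3960 against thrombin, 5391 against 2472 against resting platelets and 4535 against 1550 for the interaction. Omitting 1 library gave 7 to 27 for thrombin and 208 to 550 for resting platelets against vehicle (235, 221 and 275 without vehicle 1, 2 and 4; 208, 230 and 273 without resting platelets 1, 2 and 4), and moved no other comparison by over 1.5 times. Omitting a replicate number gave 4 to 9 for thrombin, 58 to 395 for resting platelets and 2522 to 3316 for activated platelets against vehicle, 2422 to 3331 for activated platelets against thrombin, 972 to 1952 against resting platelets and 264 to 1087 for the interaction, lowest without number 1 in each of the 6 comparisons. The cause was not tested. Depth limits Arg1, Mgl2, Pdcd1lg2 and Retnla, which had few counts.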
